A study of Mus musculus with 6 samples.

Results

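Smooth muscle contractile marker genes are the genes by which a contractile smooth muscle cell is commonly recognized. Of these, 8 were examined, namely *Myh11*, *Tagln*, *Cnn1*, *Smtn*, *Lmod1*, *Synpo2*, *Itga8* and *Npnt*. They were taken as the rows of the deposited count table whose Ensembl identifier carries 1 of these symbols in the GENCODE M21 annotation, which gave 8 of 54532 genes. The question was whether smooth muscle genes other than the actin *Acta2* follow the YAP variants in CMs.

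Smooth muscle shortens when myosin II slides along actin filaments that are anchored in dense bodies and at the cell membrane. The contractile genes of this cell type are known as targets of SRF, a transcription factor that binds the CArG box and acts with the cofactors myocardin and the MRTFs. Several of them, among them *Acta2*, are also transcribed for a time in the developing heart muscle, and the arteries of the heart hold smooth muscle cells of their own.

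Wild-type ICR mice received AAV9 under the skin at 6 d of age (P6), and hearts were taken at P9, 3 d later. The control group received cTnT-GFP, the second group cTnT-YAP6SA and the last one cTnT-YAP5SA. The cardiac troponin T (cTnT) regulatory element drives the expression of all these cassettes in CMs. YAP5SA lacks the serines that the LATS kinases phosphorylate, and YAP6SA has an additional serine-to-alanine change that disrupts its contact with the TEAD factors. CM nuclei were pulled down with an antibody against PCM-1, a protein that gathers around the nuclei of CMs, and their poly-A RNA was sequenced without strand information. There were 2 libraries per group, the first from batch 1 and the second from batch 2, and the labels speak of 2 hearts per virus without saying which heart gave which library, so the p-values measure the spread between these libraries only.

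The libraries held 14552847 to 19615627 counts on genes, and a count of 0 allows up to 3, which is 0.152 to 0.198 CPM in these libraries, where CPM is the count scaled to library size with TMM factors. The endogenous gene *Yap1* had a log2 fold change of -0.09 in YAP6SA OE CMs (FDR 0.952 in edgeR's quasi-likelihood test) and of -0.17 with YAP5SA (FDR 0.495), so the overexpression itself was not visible in its count. The 10 CM markers were abundant in every library, with a summed level of 51244 and 68424 CPM with GFP, 49726 and 63522 with YAP6SA and 43488 and 31932 with YAP5SA, and none of them was at 0.

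RefSeq promoter windows of GRCm38.p6, from 250 bases before to 50 bases after a start site, were found for 6 of the 8 genes, in 7 windows. Windows are printed for *Cnn1*, which was higher in YAP5SA OE CMs, for *Smtn* and *Synpo2*, which fell there, and for *Lmod1*, the other gene whose window held a TEAD core. Capitals mark the TEAD core GGAATG or its reverse complement CATTCC, and in *Synpo2* a MEF2 box, a motif that was searched only after the windows had been read. Both strands were searched, and no match overlapped another.
Cnn1: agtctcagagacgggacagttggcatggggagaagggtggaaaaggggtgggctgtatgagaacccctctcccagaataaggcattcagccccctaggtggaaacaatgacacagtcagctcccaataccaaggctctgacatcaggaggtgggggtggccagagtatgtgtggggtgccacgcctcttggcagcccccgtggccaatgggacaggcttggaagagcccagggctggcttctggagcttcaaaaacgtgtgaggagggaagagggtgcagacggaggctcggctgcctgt
Smtn: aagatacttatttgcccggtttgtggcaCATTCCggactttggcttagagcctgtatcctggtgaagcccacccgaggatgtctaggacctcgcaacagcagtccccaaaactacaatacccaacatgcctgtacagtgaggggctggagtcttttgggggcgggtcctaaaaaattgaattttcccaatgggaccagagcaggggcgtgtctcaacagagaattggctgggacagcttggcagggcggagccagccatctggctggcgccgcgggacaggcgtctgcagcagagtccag
Synpo2: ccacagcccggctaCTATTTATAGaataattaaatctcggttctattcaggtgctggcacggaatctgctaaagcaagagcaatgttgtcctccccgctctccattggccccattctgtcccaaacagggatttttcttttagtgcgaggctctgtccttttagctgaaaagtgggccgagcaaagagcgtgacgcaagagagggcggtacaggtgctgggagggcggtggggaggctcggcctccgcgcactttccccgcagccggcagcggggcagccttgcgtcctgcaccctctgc
Lmod1: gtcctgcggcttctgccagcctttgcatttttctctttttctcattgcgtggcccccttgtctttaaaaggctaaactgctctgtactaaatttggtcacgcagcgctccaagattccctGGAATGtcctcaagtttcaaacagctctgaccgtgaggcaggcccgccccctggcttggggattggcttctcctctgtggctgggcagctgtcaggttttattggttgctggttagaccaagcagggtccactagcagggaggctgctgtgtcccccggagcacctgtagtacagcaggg

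The *Cnn1* window lies at chr9:22099003-22099302 (plus strand), that of *Smtn* at chr11:3539243-3539542 (minus strand), that of *Synpo2* at chr3:123236100-123236399 (minus strand) and that of *Lmod1* at chr1:135324563-135324862 (plus strand). None of the 6 genes had an exact CArG box in its window, that is CC and GG around 6 bases of A or T. Looser forms of the box were not searched. The exact box was held by 1.63% of the 32851 RefSeq windows. The TEAD core occurred in the windows of *Smtn*, 222 bases before the start site, and of *Lmod1*, 130 bases before it, and in 14.7% of all windows. A MEF2 box occurred in the window of *Synpo2*, 236 bases before the start site, and in 3.19% of all windows. The RefSeq start of *Smtn* lies 1320 bases downstream of the outermost GENCODE start, so other starts of this gene are outside the window. These matches describe letters in the windows and are not evidence of binding.

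*Smtn* was by far the most abundant of the 8 genes in CM nuclei. *Smtn* (ENSMUSG00000020439, chromosome 11 of GRCm38, 3517523 to 3540612, minus strand) encodes smoothelin, an actin-associated protein of contractile smooth muscle, and had a mean level over the 6 libraries of 231 CPM per kb of countable exon. That level was higher than in 99.3% of the genes tested. *Synpo2* followed at 3.10 CPM per kb and *Myh11* at 1.73, and then *Cnn1* at 0.989, *Itga8* at 0.915, *Tagln* at 0.802, *Npnt* at 0.287 and *Lmod1* at 0.227. *Acta2*, on the same scale, was at 486 CPM per kb and the regulatory myosin light chain *Myl9* at 65.7.

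**Figure D1:**
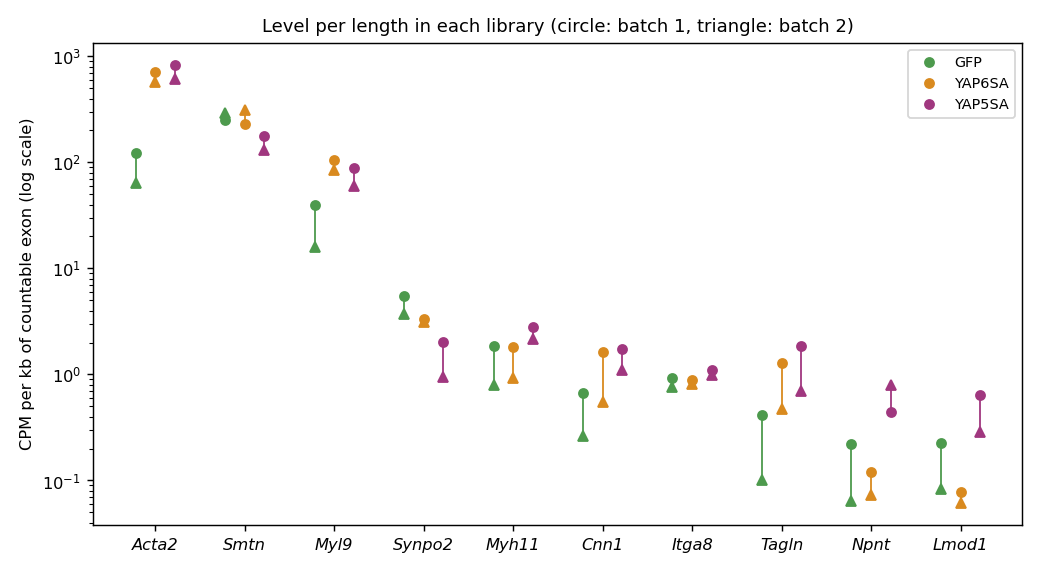
Level of *Acta2*, *Myl9* and the 8 genes in each library, as CPM per kb of exon not shared with another gene (log axis). Colours give the group, and a line joins the libraries of batch 1 (circle) and batch 2 (triangle). *Smtn* lies far above the other 7 genes in all 6 libraries, and *Synpo2* lies above *Myh11* in GFP but below it in YAP5SA OE CMs.

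Within the GFP libraries the order of the levels per kb was *Smtn* (271 ± 32.1, SD, n = 2), *Synpo2* (4.61 ± 1.30), *Myh11* (1.33 ± 0.758), *Itga8* (0.841 ± 0.124), *Cnn1* (0.466 ± 0.289), *Tagln* (0.256 ± 0.218), *Lmod1* (0.154 ± 0.101) and *Npnt* (0.142 ± 0.109). *Smtn* and *Synpo2* stood apart from the genes next to them, both libraries of *Itga8* lay above both of *Cnn1*, and the other neighbours in this order overlapped. Among YAP5SA libraries *Smtn* was still first at 153 ± 33.3 CPM per kb, but *Myh11* followed at 2.48 ± 0.45 and *Synpo2* came next at 1.47 ± 0.746.

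Exons of other genes cover part of 3 of the 8 genes, and the deposited table lists ambiguous reads apart from the genes. *Tagln* (ENSMUSG00000032085, chromosome 9, 45929619 to 45936058, minus strand), which encodes the actin-binding protein transgelin (SM22-alpha), shares 1349 of its 1988 exonic bases (67.9%) with *Gm48529* and *Pcsk7* on the other strand, and 639 bases are its own. Only 0.345% of the genes tested share at least as much of their exons, and the *Tagln* counts may hold only part of its reads. *Gm48529* had 46 and 21 counts with GFP, 51 and 49 with YAP6SA and 27 and 41 with YAP5SA, and since the libraries hold no strand its reads cannot be told from those of *Tagln*. The shared part was 16.3% for *Smtn* and 5.05% for *Itga8*, with antisense noncoding genes that had at most 12 and 19 counts in any library.

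A gene was tested if any group had a median log2 CPM above 1 for it. This left 13323 genes, among them 6 of the 8. *Tagln* and *Lmod1* had too few counts in every group. *Cnn1* passed only through its level in YAP6SA and YAP5SA OE CMs, with a median log2 CPM of 0.161 in GFP, and *Npnt* only through YAP5SA OE CMs, with medians of -0.78 in GFP and -1.11 in YAP6SA OE CMs. Having passed through the groups where they are high, these genes had to differ, so their levels and fitted values in the comparisons that involve those groups are a description and support nothing on the members as a set.

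**Figure D2:**
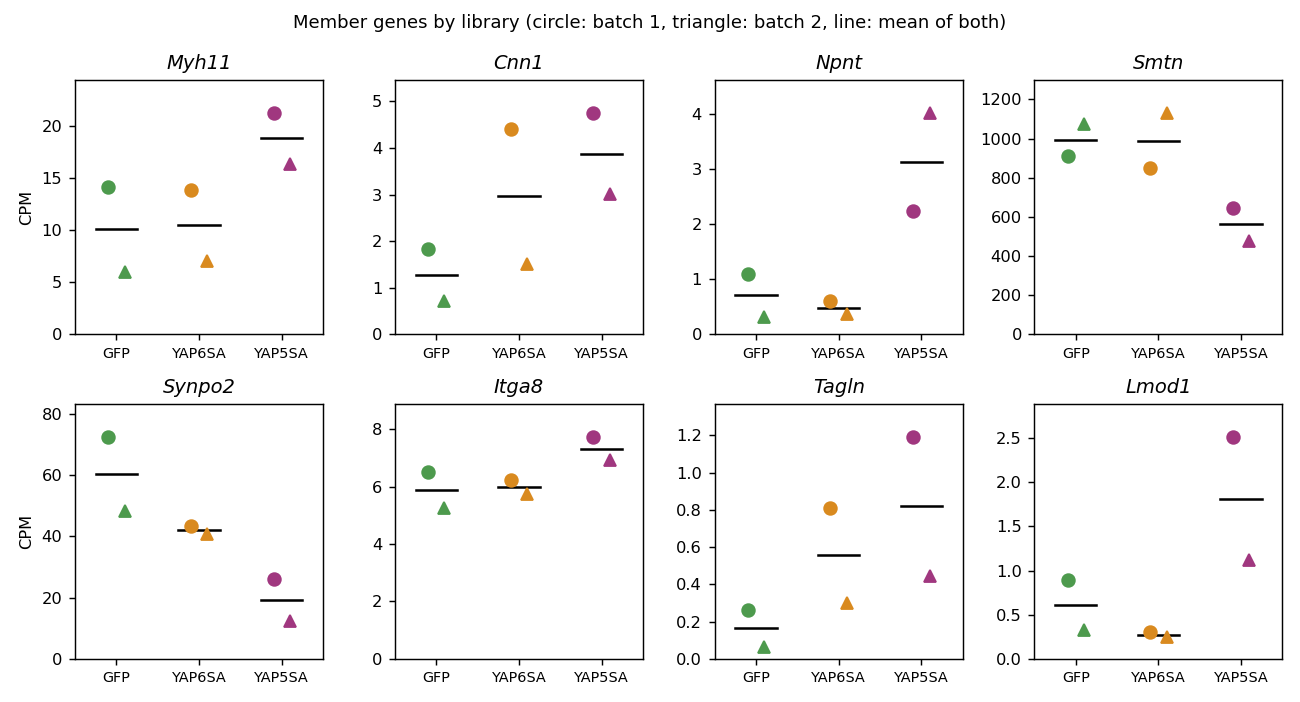
CPM of the 8 genes in each library, with linear axes that start at 0, the circle for batch 1, the triangle for batch 2 and a line at the group mean. Both YAP5SA libraries lie above all others for *Myh11*, *Npnt*, *Itga8* and *Lmod1* and below all others for *Smtn* and *Synpo2*, and the GFP and YAP6SA libraries overlap for *Myh11*, *Cnn1*, *Npnt*, *Smtn* and *Itga8*. With 2 libraries per group such a separation says little, and its share over all genes was not taken.

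The first comparison asked what YAP6SA, the variant without TEAD contact, did to these genes. In YAP6SA OE CMs 0 of the 6 tested genes passed an FDR of 0.05 (edgeR quasi-likelihood test, Benjamini-Hochberg over all 13323 genes), while 0.045% of all genes passed in either direction. At an unadjusted p under 0.05 there was 1 of the 6 with edgeR, 2 with limma-voom and 0 with DESeq2, and each of those tools called 0 at an FDR of 0.05. A fit of the 4 libraries compared called 2.07% of all genes and a fit without the filter 0.529%, and neither called a member gene.

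*Myh11* (ENSMUSG00000018830, chromosome 16, 14194535 to 14291372, minus strand) encodes the smooth muscle myosin heavy chain, the marker most closely tied to this cell type. It was at 14.2 CPM (batch 1) and 6.05 CPM (batch 2) with GFP and at 13.9 and 7.07 CPM with YAP6SA. The batches differed more than the groups, which overlapped. Its log2 fold change was 0.08 (standard error 0.273, 95% interval -0.53 to 0.69, FDR 0.976).

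*Cnn1* (ENSMUSG00000001349, chromosome 9, 22099216 to 22109630, plus strand) encodes calponin 1, which binds actin and restrains the myosin ATPase. It was at 1.83 and 0.716 CPM with GFP and at 4.41 and 1.51 CPM with YAP6SA. The YAP6SA library was the higher in each batch, but the YAP6SA library of batch 2 was below the GFP library of batch 1. The log2 fold change was 1.18 (standard error 0.485, 95% interval 0.0948 to 2.26), with an FDR of 0.804, so the rise did not pass.

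*Synpo2* (ENSMUSG00000050315, chromosome 3, 123076519 to 123236149, minus strand) encodes synaptopodin 2 (myopodin), an actin-bundling protein of dense bodies and, in striated muscle, of Z-discs. It was at 72.4 and 48.3 CPM with GFP and at 43.3 and 40.7 CPM with YAP6SA, both below GFP. The log2 fold change of -0.48 (standard error 0.222, 95% interval -0.97 to 0.02) did not pass (FDR 0.842).

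*Smtn* was at 911 and 1077 CPM in GFP and at 849 and 1131 CPM in YAP6SA OE CMs, with a log2 fold change of -0.01 (standard error 0.223, 95% interval -0.51 to 0.49, FDR 0.998). *Itga8* (ENSMUSG00000026768, chromosome 2, 12106632 to 12301922, minus strand), which encodes the integrin alpha-8 chain, was at 6.50 and 5.27 CPM in GFP and at 6.23 and 5.74 CPM in YAP6SA OE CMs, with a log2 fold change of 0.03 (standard error 0.315, 95% interval -0.67 to 0.73, FDR 0.995). *Npnt* (ENSMUSG00000040998, chromosome 3, 132881745 to 132950291, minus strand), which encodes nephronectin, a matrix ligand of the integrin that holds alpha-8, had 21 and 5 counts in GFP and 12 and 6 counts in YAP6SA OE CMs, with a log2 fold change of -0.55 (standard error 0.752, 95% interval -2.22 to 1.13, FDR 0.947). All these groups overlapped, and the width of the *Npnt* interval shows how little its counts could resolve. Leaving out 1 library turned the sign of the log2 fold change of *Myh11*, *Smtn*, *Itga8* and *Npnt* in this comparison, within ranges of -0.17 to 0.39, -0.28 to 0.23, -0.05 to 0.11 and -1.27 to 0.74.

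*Tagln* had 5 and 1 counts with GFP and 16 and 5 counts with YAP6SA. The scaled ratio of the summed counts was 3.32 (exact binomial 95% interval 1.30 to 10.1, which covers counting error only), and in the fit without the filter the log2 fold change of 1.77 (standard error 1.37) had an FDR of 1. *Lmod1* (ENSMUSG00000048096, chromosome 1, 135324807 to 135368065, plus strand), which encodes leiomodin 1, a nucleator of actin filaments, had 17 and 5 counts in GFP and 6 and 4 counts in YAP6SA OE CMs, a ratio of 0.432 (0.182 to 0.95) and, without the filter, a log2 fold change of -1.05 (standard error 0.968, FDR 1). Neither gene passed, and both had few counts at this depth.

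YAP5SA, which keeps the TEAD contact, was compared with GFP next, and here the tested genes went in both directions. Against a background of 12.8% of all genes higher and 9.18% lower, *Myh11* rose, *Smtn* and *Synpo2* fell and *Itga8* was not past the threshold, these 4 being the genes above the filter's level in every group. *Cnn1* and *Npnt*, which were not, were at higher levels than in GFP and had an FDR under 0.05 as well. The median log2 fold change over all genes tested was -0.0031. Without the batch term, which pairs the libraries as a replicate block, 15.7% of all genes passed in either direction, among the members *Smtn* and *Synpo2* passed, and the FDR was 0.185 for *Myh11*, 0.127 for *Cnn1* and 0.0573 for *Npnt*.

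*Synpo2* showed the fall with the least dependence on single libraries. The YAP5SA libraries were at 26.2 and 12.4 CPM, both below the GFP libraries at 72.4 and 48.3. The level fell 3.22-fold, with a log2 fold change of -1.69 (standard error 0.23, 95% interval -2.20 to -1.17, FDR 0.00135), and within-batch log2 differences of -1.46 and -1.95. It stayed past the threshold in all 9 other fits and in all 6 fits that left out 1 library, with log2 fold changes from -2.08 to -1.34 in the latter.

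*Smtn* was at 648 and 475 CPM in the YAP5SA libraries, below both GFP libraries. It fell 1.76-fold (log2 fold change -0.81, standard error 0.226, 95% interval -1.32 to -0.31, FDR 0.0291), with log2 differences of -0.49 in batch 1 and -1.18 in batch 2. The call was lost without the GFP library of batch 1 (-0.94, FDR 0.0653), without that of batch 2 (-0.69, FDR 0.224) and without the YAP5SA library of batch 2 (-0.44, FDR 0.093).

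*Myh11* was at 21.3 and 16.4 CPM in YAP5SA OE CMs, above both GFP libraries at 14.2 and 6.05. It rose 2.00-fold (log2 fold change 1.00, standard error 0.273, 95% interval 0.39 to 1.61, FDR 0.0274), by 0.58 in batch 1 and 1.42 in batch 2. Without the GFP library of batch 2 the log2 fold change was 0.73 (FDR 0.300) and without the YAP5SA library of batch 2 it was 0.65 (FDR 0.144).

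*Cnn1* was at 4.75 and 3.01 CPM, again above both GFP libraries. The fitted level was 3.26-fold that of GFP (log2 fold change 1.70, standard error 0.485, 95% interval 0.62 to 2.79, FDR 0.0322), with differences of 1.32 and 1.91 in the batches. With at least 10 counts required in every library, a filter that *Cnn1* passed in all groups, the FDR was 0.0235. The call did not hold without the GFP library of batch 1 (1.87, FDR 0.120), without the GFP library of batch 2 (1.59, FDR 0.212) or without the YAP5SA library of batch 2 (1.34, FDR 0.140).

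*Npnt* had 34 and 72 counts in the YAP5SA libraries, or 2.24 and 4.02 CPM, against 1.10 and 0.325 CPM in GFP. The fitted level was 4.51-fold that of GFP (log2 fold change 2.17, standard error 0.673, 95% interval 0.67 to 3.67, FDR 0.0442), with differences of 0.96 in batch 1 and 3.23 in batch 2. In the fit without the filter, where no gene was selected by its level, it was 2.22 (95% interval 0.88 to 3.56, FDR 0.0122). That interval has the width of a normal distribution, so this FDR takes little account of the gene's own spread. Without the GFP library of batch 2 it was 1.34 (FDR 0.403) and without the YAP5SA library of batch 2 it was 1.19 (FDR 0.366).

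*Itga8*, whose integrin binds nephronectin, was at 7.72 and 6.92 CPM in YAP5SA OE CMs. Both libraries were above GFP, but the log2 fold change of 0.32 (standard error 0.314, 95% interval -0.38 to 1.02) did not pass (FDR 0.500). *Tagln* had 18 and 8 counts and *Lmod1* 38 and 20 counts, both higher than in GFP in each library. The scaled ratios of the summed counts were 4.52 (exact binomial 95% interval 1.82 to 13.4) for *Tagln* and 2.75 (1.66 to 4.71) for *Lmod1*. In the fit without the filter, which called 12.8% of 27396 genes in either direction, the log2 fold changes were 2.32 (standard error 1.36, FDR 0.363) and 1.58 (standard error 0.862, FDR 0.301). Neither passed, and this depth could not resolve either gene.

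**Figure D3:**
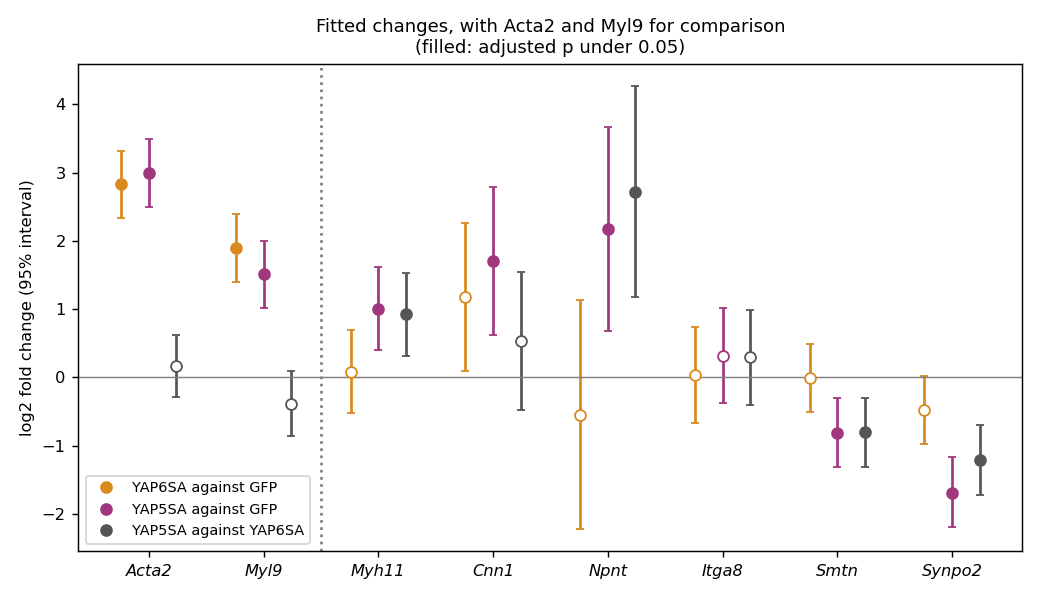
Log2 fold change with its 95% interval for *Acta2*, *Myl9* and the 6 tested genes in the 3 comparisons, filled where the FDR is under 0.05. *Acta2* and *Myl9* lie above 0 in both variants, whereas among the 6 genes no YAP6SA point is filled and the YAP5SA points lie on both sides of 0.

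The direct comparison of the variants asked where YAP5SA and YAP6SA differ, with 9% of all genes higher and 5.68% lower in YAP5SA OE CMs. *Myh11* was higher in YAP5SA OE CMs, with a log2 fold change of 0.92 (standard error 0.271, 95% interval 0.32 to 1.53, FDR 0.0476). *Synpo2* was lower, at -1.21 (standard error 0.23, 95% interval -1.72 to -0.70, FDR 0.00863), and so was *Smtn*, at -0.81 (standard error 0.226, 95% interval -1.31 to -0.30, FDR 0.0400). *Npnt*, which passed the filter only through YAP5SA OE CMs, was at a log2 difference of 2.72 (standard error 0.693, 95% interval 1.17 to 4.27, FDR 0.0282). Without the filter it was at 2.75 (FDR 0.00147), in a fit that takes little account of a gene's own spread. For these 4 genes the libraries of the variants did not overlap, as for *Itga8*, which did not pass (FDR 0.575). With 2 libraries per group this says little, and the share of all genes without overlap was not taken. With no replicate block 8.65% of all genes passed, and the FDR was 0.245 for *Myh11*, 0.0599 for *Smtn*, 0.0618 for *Synpo2* and 0.0422 for *Npnt*.

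*Cnn1* differed by 0.53 (95% interval -0.48 to 1.54, FDR 0.473) and *Itga8* by 0.29 (95% interval -0.41 to 0.99, FDR 0.575), and neither passed. *Lmod1* had 6 and 4 counts in the YAP6SA libraries against 38 and 20 in the YAP5SA libraries, a ratio of 6.36 (exact binomial 95% interval 3.22 to 14.0). In the fit without the filter, which called 10% of 27396 genes, this was a log2 fold change of 2.63 (standard error 0.934, FDR 0.0481), while *Tagln* differed by 0.56 (standard error 1.21, FDR 0.912). That fit takes little account of a gene's own spread, which limits the *Lmod1* call.

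Each of these calls was lost in some fit that left out 1 library. Such a fit estimates the spread from fewer libraries, so a lost call alone does not show that the library left out decided it. Without the YAP6SA library of batch 2 the share of all genes that passed was 2.97%, and none of the 6 genes passed, with 2 of them at an unadjusted p under 0.05 (edgeR), and the FDR was 0.376 for *Myh11* (log2 fold change 0.83), 0.526 for *Smtn* (-0.55), 0.133 for *Synpo2* (-0.84) and 0.236 for *Npnt* (2.44). Without the YAP6SA library of batch 1 the FDR was 0.155 for *Myh11* (1.02), 0.0796 for *Smtn* (-1.07) and 0.0744 for *Npnt* (3.04). Without the YAP5SA library of batch 2 it was 0.267 for *Myh11* (0.57), 0.143 for *Smtn* (-0.42) and 0.253 for *Npnt* (1.69). *Synpo2* passed in 5 of the 6 fits that left out a library.

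*Acta2* and *Myl9* rose in both variants. *Acta2*, the smooth muscle alpha-actin, was at 271 and 141 CPM in GFP, 1553 and 1251 in YAP6SA OE CMs and 1835 and 1347 in YAP5SA OE CMs. All 4 variant libraries lay far above both GFP libraries. The log2 fold change was 2.83 in YAP6SA OE CMs (95% interval 2.34 to 3.32, FDR 0.00222) and 3.0 in YAP5SA OE CMs (95% interval 2.5 to 3.49, FDR 7.97e-05), and the variants differed by 0.17 (95% interval -0.29 to 0.63, FDR 0.620). *Myl9* went from 45.6 and 18.4 CPM in GFP to 123 and 98.4 in YAP6SA OE CMs and 103 and 69.9 in YAP5SA OE CMs, with log2 fold changes of 1.89 (FDR 0.0250) and 1.51 (FDR 0.00186). The *Acta2* interval in YAP6SA OE CMs lies above the upper limits of *Myh11*, *Cnn1*, *Smtn*, *Synpo2*, *Itga8* and *Npnt* in the same comparison, the highest of which was 2.26 for *Cnn1*. A test of the difference between genes was not made. Without the GFP library of batch 2 the YAP6SA call of *Myl9* was lost (1.49, FDR 0.0527), and without a replicate block those of *Acta2* and *Myl9* were lost too (FDR 0.112 and 0.981).

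Beside the 8 genes, a list of 19 other smooth muscle contractile genes was followed, of which 17 were tested. In YAP6SA OE CMs 2 rose, *Acta2* and *Myl9*, and 0 fell, where 0.045% of all genes passed. The median log2 fold change was 0.44 beside 0.0018 over all genes tested, and 8 of the 17 had an unadjusted p under 0.05 (edgeR). In the fit of only the 4 libraries compared 7 of the 17 were called higher, where 2.07% of all genes passed, and 4 of 19 without the filter, where 0.529% did. With YAP5SA 9 rose and 1 fell, with a median of 0.65, where 12.8% of all genes were higher and 9.18% lower. *Cald1*, which encodes the actin- and myosin-binding caldesmon, rose from 44.6 and 23.6 CPM in GFP to 192 and 301 CPM (log2 fold change 2.91, standard error 0.318, FDR 0.000522). In YAP6SA OE CMs *Cald1* was at 38.6 and 26.9 CPM, within the spread of GFP (-0.05, FDR 0.991), and YAP5SA exceeded YAP6SA by 2.96 (FDR 0.000582). *Hspb6*, a small heat shock protein of muscle, fell in YAP5SA OE CMs (log2 fold change -0.79, FDR 0.0205), with GFP at 99.1 and 66.6 CPM and YAP5SA at 72.1 and 29.6 CPM, and this call was lost without the GFP library of batch 2 (-0.65, FDR 0.186), without the YAP5SA library of batch 2 (-0.42, FDR 0.103) and with no replicate block (-0.71, FDR 0.217).

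The 8 genes have close relatives, many of which are the forms used outside smooth muscle. Of 17 such paralogs 14 were tested, and in YAP5SA OE CMs 5 rose and 4 fell, where 12.8% of all genes were higher and 9.18% lower. The tested relatives of calponin and transgelin rose, while *Tagln3* had too few counts to be tested, at 1.20 and 1.82 CPM in GFP and 0.33 and 1.34 CPM in YAP5SA OE CMs. *Cnn2*, the calponin of nonmuscle cells, went from 39.8 and 25.9 CPM in GFP to 213 and 265 CPM (log2 fold change 2.92, standard error 0.254, FDR 0.000187), and *Cnn3* from 21.8 and 15.1 to 59.3 and 91 CPM (2.06, standard error 0.287, FDR 0.00149). *Tagln2*, the transgelin of nonmuscle cells, rose from 22.4 and 12.4 to 55.8 and 59 CPM (1.81, standard error 0.265, FDR 0.00185). Both YAP5SA libraries were above both GFP libraries for each of these, which says little with 2 libraries per group.

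Within the myosin II family the members moved apart. *Myh9*, a nonmuscle myosin heavy chain, rose from 172 and 171 CPM to 324 and 489 CPM (log2 fold change 1.22, FDR 0.00199) alongside *Myh11*, whereas *Myh14*, also a nonmuscle form, fell from 78.6 and 112 CPM to 55.4 and 52.2 CPM (-0.80, FDR 0.0105) and *Myh10* did not pass (-0.11, FDR 0.653). Synaptopodin relatives were also unlike *Synpo2*. *Synpo* rose from 159 and 98.6 CPM to 294 and 434 CPM (1.57, FDR 0.00669), and *Synpo2l*, the form of heart and skeletal muscle, was at 0.41 (FDR 0.0936).

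The tested relatives of leiomodin 1 and smoothelin fell. *Lmod1* itself had too few counts to be tested and went the other way, from 17 and 5 counts in GFP to 38 and 20 in YAP5SA OE CMs. *Lmod2*, the leiomodin of the heart sarcomere, was at 202 and 319.9 CPM in GFP and at 146 and 189 CPM in YAP5SA OE CMs (log2 fold change -0.61, FDR 0.0197). *Lmod3* went from 58 and 73.8 to 39.7 and 36.1 CPM (-0.78, FDR 0.0147), and the smoothelin-like *Smtnl2* from 48.5 and 48.4 to 32.8 and 32.6 CPM (-0.57, FDR 0.0298). The groups did not overlap for these 3 genes, which says little with 2 libraries per group, and the share of all genes without overlap was not taken. The integrin chains *Itga5* (0.10, FDR 0.701), *Itgav* (0.50, FDR 0.118) and *Itga2b* (-0.06, FDR 0.888) did not pass, as *Itga8* did not.

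Without the GFP library of batch 2 the calls in YAP5SA OE CMs were lost for *Synpo* (log2 fold change 1.31, FDR 0.0626), *Myh14* (-0.59, FDR 0.187), *Lmod2* (-0.50, FDR 0.265), *Lmod3* (-0.69, FDR 0.153) and *Smtnl2* (-0.56, FDR 0.239). Without the GFP library of batch 1 they were lost for *Lmod2* (-0.72, FDR 0.0624) and *Smtnl2* (-0.56, FDR 0.172). Without the YAP5SA library of batch 2 they were lost for *Lmod2* (-0.50, FDR 0.0531), *Lmod3* (-0.51, FDR 0.0709) and *Smtnl2* (-0.55, FDR 0.0636), and *Smtnl2* also needed both YAP6SA libraries in the fit (FDR 0.0614 without either, and 0.0679 in the fit of the 4 libraries compared). With no replicate block the *Lmod2* call was lost too (-0.64, FDR 0.131).

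In YAP6SA OE CMs 0 of the 14 paralogs passed in the fit of all 6 libraries (edgeR), where 0.045% of all genes did, with 2 at an unadjusted p under 0.05. These were *Cnn2*, at 87.1 and 50.2 CPM (log2 fold change 1.05, FDR 0.328), and *Tagln2*, at 41.7 and 20.2 CPM (0.81, FDR 0.653). Both were past the threshold in the fit of only the 4 libraries compared, in the fit without the filter and without either YAP5SA library, and *Cnn2* also with DESeq2 (FDR 0.0200) and the likelihood ratio test (FDR 0.0139). The other 12 lay between -0.34 and 0.52.

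*Srf* itself was at 63.1 and 59.2 CPM in GFP, 158 and 146 in YAP6SA OE CMs and 142 and 92.9 in YAP5SA OE CMs. It rose in both variants, with log2 fold changes of 1.31 (standard error 0.17, FDR 0.0424) and 0.92 (standard error 0.17, FDR 0.00544). Its cofactor myocardin (*Myocd*), which is shared by heart and smooth muscle, was at -0.17 (FDR 0.947) and -0.57 (FDR 0.123), *Mrtfa* at 0.003 (FDR 0.999) and 0.29 (FDR 0.397) and *Mrtfb* at -0.02 (FDR 0.995) and -0.41 (FDR 0.152). The YAP6SA call of *Srf* was lost without any 1 of the GFP or YAP6SA libraries, with log2 fold changes from 1.18 to 1.45 and FDR from 0.0713 to 0.217, and without the replicate block (FDR 0.361), and its YAP5SA call without the GFP library of batch 1 (0.79, FDR 0.0551). Of 10 YAP/TEAD targets 8 rose in YAP5SA OE CMs, where 12.8% of all genes did, with a median log2 fold change of 1.85 over the list. In YAP6SA OE CMs 0 of the targets passed (edgeR), with 1 at an unadjusted p under 0.05 and a median of 0.11. Without the filter 2 of these targets were called higher in YAP6SA OE CMs, *Ankrd1* (log2 fold change 0.87, FDR 2.85e-05) and *Ccn2* (0.66, FDR 0.0350), and *Ankrd1* also in the fit of 4 libraries (FDR 0.000168), with DESeq2 (FDR 0.00100) and with the likelihood ratio test (FDR 0.00361). The fit without the filter takes little account of a gene's own spread. *Ccn2* was at -0.15 without the GFP library of batch 2 and at 1.76 without that of batch 1. *Ankrd1* in this comparison, and *Rgs5* and *Cldn5* below, are named after their values were seen.

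The nuclei could include those of other cells, so markers of these cells were followed in the same libraries. In bulk libraries a lower number of cells of a type and less RNA per cell cannot be told apart. The 10 pericyte markers, the lineage closest to smooth muscle, summed to 243 to 308 CPM in GFP, 296 to 371 in YAP6SA OE CMs and 348 to 355 in YAP5SA OE CMs. Of these, 1 rose in YAP5SA OE CMs, the adhesion molecule *Mcam* (log2 fold change 1.30, FDR 0.00258), 0 fell, 5 lay above 0 and the median log2 fold change was -0.01. *Mcam* alone was at 66.4 and 49 CPM in GFP and at 126 and 152 CPM in YAP5SA OE CMs, and it makes up a large part of the YAP5SA sums. With 12.8% of all genes higher, 1 of 10 is no result on this list. In YAP6SA OE CMs 0 passed (edgeR; 1 had an unadjusted p under 0.05), while all 10 lay above 0 with a median of 0.33, and the fit of 4 libraries called *Rgs5* (log2 fold change 0.86, FDR 0.00855 in that fit). The pericyte part in the higher levels of *Myh11*, *Cnn1* and *Npnt* was not tested.

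None of the 10 fibroblast and 10 endothelial markers passed in any comparison between groups (edgeR; against GFP 4 and 1 had an unadjusted p under 0.05 with YAP6SA, and 3 and 0 with YAP5SA), but for the endothelial *Cldn5* in YAP6SA OE CMs (log2 fold change 0.96, FDR 0.328 in the fit of all libraries) when the filter was removed or only 4 libraries were fitted. The median log2 fold change of the fibroblast markers was 0.32 in YAP6SA OE CMs, where all 10 lay above 0, and 0.12 in YAP5SA OE CMs, where 6 did, and that of the endothelial markers was 0.09 and 0.20. The fibroblast sums were 894 to 1409 CPM in GFP, 1025 to 1831 in YAP6SA OE CMs and 938 to 1538 in YAP5SA OE CMs, and the endothelial sums 510.3 to 646, 525 to 779 and 532 to 676 CPM. The 7 mesothelial markers summed to 32.1 to 43.6 CPM in GFP, 32.4 to 60 in YAP6SA OE CMs and 128 to 189 in YAP5SA OE CMs. Most of the YAP5SA sums was *Wt1* alone, at 92.5 and 154 CPM against 13.7 and 13.5 CPM in GFP. *Wt1* (log2 fold change 3.17, FDR 0.000232) and *Krt19* (2.21, FDR 0.0291) were called higher among 5 tested, where 12.8% of all genes were higher. The median log2 fold change of these 5 was 0.73 and the lowest 0.03. *Krt19* was not called without the GFP (1.86) or the YAP5SA (0.89) library of batch 2. The 8 macrophage markers summed to 56.7 to 76.7, 65.7 to 91.5 and 75.8 to 113 CPM. In YAP5SA OE CMs all 7 tested lay above 0, with a median log2 fold change of 0.32, and 3 had an unadjusted p under 0.05 (edgeR). Without the filter 3 of the 8 were called higher, where 12.8% of all genes passed in either direction. In the fit of all libraries with the filter, *C1qa* (0.96, FDR 0.0228) was called higher, where 12.8% of all genes were, so this call is no result on the list. Its libraries overlapped those of GFP, and the call was lost with no replicate block (FDR 0.140). It was also lost without either GFP library (log2 fold changes 0.85 and 1.11) or the YAP5SA library of batch 2 (0.79). No marker of these lists was at 0 in any library. Of the 10 CM markers 9 lay below 0 in YAP5SA OE CMs, with a median log2 fold change of -0.61 beside -0.81 for *Smtn* and -1.69 for *Synpo2*, and 6 had an unadjusted p under 0.05. The calcium pump regulator *Pln* (-1.04, FDR 0.00784) and the calcium release channel *Ryr2* (-0.81, FDR 0.0455) passed, where 9.18% of all genes were lower. Without the filter 6 were called lower, where 12.8% of all genes passed in either direction. The *Ryr2* call was lost in the fit of the 4 libraries compared (FDR 0.0986), with no replicate block (FDR 0.0740) and without any 1 of 4 libraries (log2 fold changes from -0.81 to -0.40, FDR from 0.101 to 0.499), namely either YAP6SA library, the GFP library of batch 2 or the YAP5SA library of batch 2, and the *Pln* call without the GFP library of batch 2 (-0.91, FDR 0.0749). Against YAP6SA, all 10 CM markers lay below 0 in YAP5SA OE CMs, with a median of -0.52. The part of these shifts in the members' changes was not tested.

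The levels of the 8 genes were also compared between the batches. *Myh11*, *Cnn1*, *Tagln*, *Lmod1*, *Synpo2* and *Itga8* had a higher CPM in batch 1 than in batch 2 in each of the 3 groups, and *Npnt* in GFP and YAP6SA OE CMs only. With 3 groups a shared direction says little, and its share over all genes was not taken. In the same model the batch 2 against batch 1 log2 difference was -0.85 for *Myh11* (FDR 0.166), -1.15 for *Cnn1* (FDR 0.285) and -0.57 for *Synpo2* (FDR 0.261), and 0 of 6 passed an FDR of 0.05 where 0.203% of all genes did, with 3 of 6 at an unadjusted p under 0.05 (edgeR). Without the filter, where 1.77% of all genes passed, *Myh11* (FDR 0.0112) and *Synpo2* (FDR 0.0380) passed, in a fit that takes little account of a gene's own spread. Fibroblast markers summed to 1409 to 1831 CPM in batch 1 and 894 to 1025 CPM in batch 2, and all 10 had a negative batch difference, with *Postn*, a matrix protein gene, past the threshold (-0.97, FDR 0.0295). Whether other cell types contribute to the batch difference of the members was not tested.

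The profiles of the 6 tested genes over the 6 libraries were also compared with those of all tested genes, as centred log2 CPM with the root mean square difference as the measure. The nearest genes were *Scml4* (0.085), *Cdc42ep5* (0.103) and *Cmklr1* (0.138) for *Myh11*, and *Nmrk2* (0.207), *Csrp1* (0.239) and *A930033H14Rik* (0.252) for *Cnn1*. For *Smtn* they were *1300002E11Rik* (0.0431), *1110018N20Rik* (0.0575) and *Slc25a27* (0.0636), and for *Synpo2* *Myadml2* (0.137), *Zfp775* (0.164) and *Tmem74b* (0.168). For *Itga8* they were *Ostm1* (0.0323), *Ccny* (0.0384) and *Snhg14* (0.0421), and for *Npnt* *Usp31* (0.201), *Lox* (0.222) and *2010110K18Rik* (0.262). *Csrp1*, a LIM protein, belongs to the list of other smooth muscle contractile genes, and no member was among the 3 nearest genes of another. Between members the smallest difference was 0.442, between *Myh11* and *Cnn1*, and the largest 1.86, between *Synpo2* and *Npnt*. These distances describe 6 libraries that share batches and groups and carry no test.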

How the data were processed

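Poly-A RNA of PCM-1-bound nuclei was measured in 6 libraries of 3 groups. Reads were aligned by the authors, using STAR and mm10 (Ensembl GRCm38.94), who deposited raw counts per gene, without normalization or filter. The counting mode is not given in the sources used here. Ambiguous reads (5.79% to 6.31% of a library) and rows that name no gene were left out. Symbols and coordinates came from GENCODE M21 (GRCm38).

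Genes with a median log2 CPM over 1 in at least 1 group (13323) were kept, as the study's methods state. The counts were fitted with edgeR 4.0.16 in R 4.3.3 (TMM scaling, quasi-likelihood test, terms for batch and group, all 6 libraries, Benjamini-Hochberg, threshold 0.05). Log2 values within batches use a prior count of 2. The labels' batch pairs the libraries. Their deviations correlated at 0.368 (GFP and YAP6SA), and only weakly where YAP5SA was involved, at 0.0985 (GFP and YAP5SA) and 0.175 (YAP6SA and YAP5SA). Replicates differed by 27.7 to 43.6 times sampling noise, so none was a copy. The pipeline was tested on simulated data.

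Alternatives were RLE and upper quartile scaling, a filter of at least 10 counts or none, the likelihood ratio test, DESeq2 1.42.0, limma-voom (limma 3.58.1), no replicate block, 4 libraries only, thresholds of 0.01 and 0.1, and each library left out. The fit without the filter gave intervals of normal width. Its FDRs therefore take little account of each gene's own spread and can be too low. The member genes and all lists were chosen with earlier results of these data known. Beside the members, *Acta2*, *Myl9*, *Srf* and its cofactors, named genes were the paralogs that passed the filter, at most the 3 largest changes per direction of each other list, and the 3 nearest profiles.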

Additional observations from a re-analysis of the deposited data

How the results depend on the processing

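In YAP6SA OE CMs 0 member genes passed under any of the alternatives. The number of members called in YAP5SA against GFP, with *Cnn1* and *Npnt*, which the filter admitted through their high groups, was 5, where 2931 of all 13323 genes passed. It became 2 with no replicate block, where 15.7% of all genes passed, and 1 at a threshold of 0.01, where 1117 genes did. For YAP5SA against YAP6SA it was 4, where 1956 genes passed. It became 1 with no replicate block, where 8.65% passed, and 1 at 0.01, where 660 genes did. Both numbers were lower in some fits with 1 library left out. These counts are no result on the members as a set. Pairing therefore matters here: without the block *Myh11* (FDR 0.185), *Cnn1* (0.127) and *Npnt* (0.0573) lost their call against GFP in edgeR's quasi-likelihood test, and *Myh11* (0.245), *Smtn* (0.0599) and *Synpo2* (0.0618) theirs against YAP6SA. The other scalings, tests and filters changed no call of a member that they tested, but without the filter *Lmod1* was called too in YAP5SA against YAP6SA.

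Over all genes, the calls in YAP6SA against GFP went from 6 to 145 without the filter, 82 with the likelihood ratio test, 55 with DESeq2, 276 with 4 libraries, 0 with no replicate block, 2 at 0.01 and 6 to 213 with 1 library left out. Those in YAP5SA against GFP went from 2931 to 1117 at 0.01 and 738 to 4863 with 1 left out. Those in YAP5SA against YAP6SA went from 1956 to 1152 with no replicate block, 660 at 0.01, 3039 at 0.1 and 396 to 4160 with 1 left out. The cause was not tested.

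The sign turned for *Smtn* in YAP6SA against GFP with upper quartile scaling (0.0015). With 1 library left out, log2 fold changes in this comparison ran from -0.17 to 0.39 (*Myh11*), -0.28 to 0.23 (*Smtn*), -0.0497 to 0.111 (*Itga8*), -1.27 to 0.74 (*Npnt*), -0.15 to 0.23 (*Myh9*), -0.47 to 0.42 (*Synpo*), -0.369 to 0.0582 (*Myh14*) -0.48 to 0.52 (*Cald1*), -0.12 to 0.96 (*Wt1*), -0.79 to 1.16 (*Krt19*), -0.28 to 0.17 (*Pln*), -0.31 to 0.43 (*Ryr2*) and -0.15 to 1.76 (*Ccn2*), and from -0.0106 to 0.369 for *Acta2* in YAP5SA against YAP6SA. A library left alone in its group is assumed to vary like the others. The batch test, the MEF2 search, the shares of all genes called in single alternatives and the values of genes outside the members were added after the data were seen. Counts under 100 in most libraries limit *Cnn1*, *Npnt*, *Lmod1* and *Tagln*.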
